A study of Homo sapiens with 4 samples.

Results

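The 10 genes described here encode the enzymes that make serine, pass its carbon on to folate and make asparagine. They are PHGDH, PSAT1 and PSPH of serine synthesis, SHMT1, SHMT2, MTHFD1, MTHFD2, MTHFD1L and ALDH1L2 of folate one-carbon metabolism, and ASNS, the asparagine synthetase. They were taken by symbol from the 58233 gene identifiers of the count table, and each symbol matched 1 identifier. Positions are those of GRCh38. Their messenger RNA was measured in MIA PaCa-2 and PANC-1, established human pancreatic cancer cell lines labelled wild type (WT), after 24 h with the phytocannabinoid cannabichromene (CBC) or with PBS as the control. The groups were the MIA PaCa-2 control, MIA PaCa-2 CBC at 35 μM, the PANC-1 control and PANC-1 CBC at 30 μM, with 1 library each and 4 in all. The doses and the solvent of CBC, acetonitrile, are named in the methods, which call the control a vehicle control, while the labels name PBS. Whether the control held acetonitrile is thus not settled. If it held none, CBC and its solvent cannot be told apart. Each line stands for 1 tumour, and the dose differed between the lines.

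Cells make serine from the glycolytic intermediate 3-phosphoglycerate in a chain of reactions run by PHGDH, PSAT1 and PSPH. Serine hydroxymethyltransferases then move a carbon from serine to tetrahydrofolate, and this one-carbon unit is used to build purines, thymidylate and methionine. The folate reactions exist as parallel sets of enzymes in mitochondria (SHMT2, MTHFD2, MTHFD1L, ALDH1L2) and in the cytosol (SHMT1, MTHFD1). In many tumour cells the mitochondrial set supplies formate to the cytosol. ASNS makes asparagine from aspartate with the amide nitrogen of glutamine. Several of these genes are textbook targets of ATF4, the transcription factor of the amino acid and integrated stress responses, and the standard formula of DMEM, the culture medium of these cells, holds serine but no asparagine.

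The libraries held 21742775 to 27903667 counts on genes. A level is given as CPM, the count relative to a library size scaled by the trimmed mean of M-values (TMM), and 3 counts correspond to 0.11 to 0.135 CPM. Keratin 8, keratin 18, keratin 19 and vimentin were abundant in every library. The 7 markers of ductal or carcinoma cells summed to 5560 to 6850 CPM, nearly all from these keratins and vimentin. The epithelial markers EPCAM and CDH1 had no count in untreated MIA PaCa-2 cells. After CBC, EPCAM had 1 count there and CDH1 none. In PANC-1 cells EPCAM was at 11.6 CPM without CBC and 9.15 CPM with it, and CDH1 at 1.41 and 4.79 CPM. KRT7, another keratin of this list, had 2 counts (0.09 CPM) in untreated MIA PaCa-2 cells. It was at 2.10 to 2.15 CPM in each other library. Of the 13 markers of other cell types, 9 were at 0 in each MIA PaCa-2 library and 11 in each PANC-1 library, including PTPRC, PECAM1, DCN and INS in all of them. Their sum was 1.01 to 6.48 CPM in the MIA PaCa-2 libraries. For PANC-1 it was 134 CPM in the control and 46.4 CPM after CBC, nearly all from COL1A1. The mitochondrial share of counts was 5.81% and 4.63% in the MIA PaCa-2 and PANC-1 controls and 3.86% and 2.42% after CBC, and its part in the results was not tested. A lower level in such bulk RNA cannot tell fewer cells of a state from less RNA per cell.

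Within a line there was no replicate, so a difference there has a value and a 95% interval of counting error (exact Clopper-Pearson), but no test. A gene is called a DEG where its log2 fold change passed 1 or -1 and either library of the pair reached 1 CPM. Both lines together were the only replication of CBC treatment. Their 4 libraries entered edgeR's quasi-likelihood test as 2 blocks, 1 per line, adjusted by the Benjamini-Hochberg method over 16381 genes, and "rose" and "fell" are used only for genes past an adjusted p of 0.05 in this test. Nothing in the labels says whether the cultures were independent repeats, and the lines stand in for replicates.

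In MIA PaCa-2 cells all 10 genes were tested and 4 were DEGs. ASNS, PHGDH and ALDH1L2 were higher, against a background of 11.5% of the 14001 tested genes, and SHMT1 was lower, against 8.97%. In PANC-1 cells 4 of 10 genes were higher DEGs (ASNS, ALDH1L2, MTHFD2 and PSAT1; background 7.71% of 14091 genes) and none was lower (background 7.03%). The median log2 fold change of the 10 genes was 0.64 in MIA PaCa-2 and 0.65 in PANC-1, beside medians of -0.01 and 0.02 over all tested genes. ASNS and ALDH1L2 were higher DEGs in both lines, as were 3.33% of the 12502 genes tested in both. ALDH1L2 was under 1 CPM in both controls and entered only through its CBC libraries, so it could only be higher. With at least 1 CPM required in both libraries it was not tested, and 3 members were DEGs in each line. By counting error alone, 6 of the 10 genes were above 0 in both lines (background 23.2%), 2 were below 0 in both (background 24.9%), SHMT2 lay on opposite sides, and PSPH differed from 0 in PANC-1 cells but not in MIA PaCa-2 cells. Across both lines 3 of the 10 genes rose, ASNS, ALDH1L2 and MTHFD2 (background 2.26%), and 1 fell, MTHFD1 (background 2.45%). With the line left out of the edgeR model the spread between the lines entered the error, and none of the 10 genes was called (edgeR adjusted p = 1 for all 10).

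**Figure D1:**
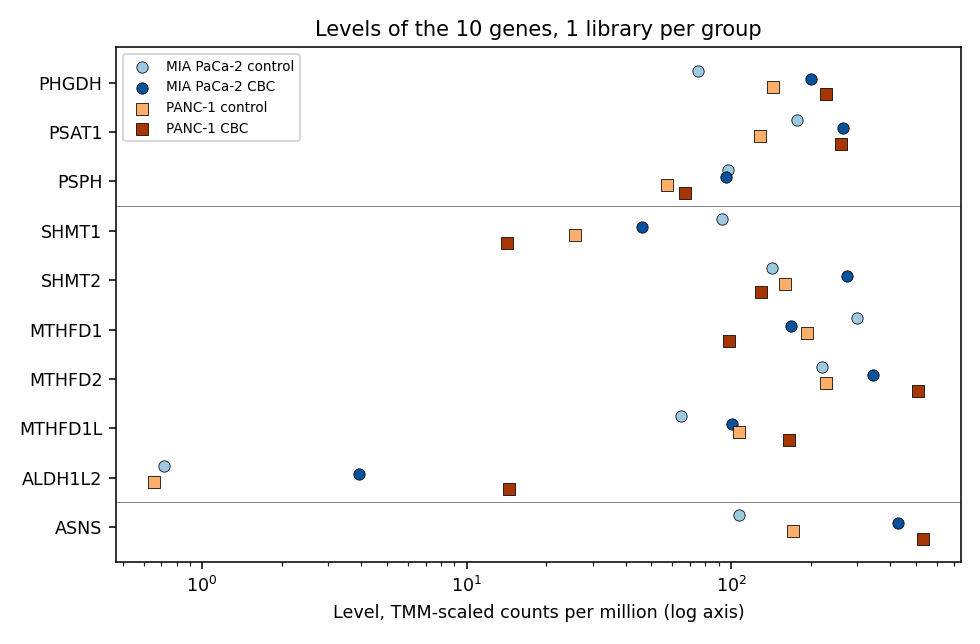
Level of each gene in the 4 libraries, as TMM-scaled CPM on a log axis, with 1 point per library and horizontal lines between serine synthesis, folate enzymes and ASNS. The CBC points of ASNS lie at 427 and 531 CPM, to the right of both controls, while those of SHMT1 and MTHFD1 lie to the left of the control of their own line.

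ASNS, which makes asparagine, had the largest change of the well expressed members. ASNS was at 107 CPM in the MIA PaCa-2 control, 427 CPM in MIA PaCa-2 CBC, 171 CPM in the PANC-1 control and 531 CPM in PANC-1 CBC. Both CBC libraries stood above both controls, so the treatment groups did not overlap although the lines differed at the start. Such a separation is only described, here and for the members below, since the share of all genes that show it was not counted. The log2 fold change was 1.998 (1.93 to 2.06) in MIA PaCa-2 cells, a fold of 3.996, and 1.63 (1.58 to 1.69) in PANC-1 cells, a fold of 3.10. Across both lines ASNS rose by 1.82 on the log2 scale (standard error, SE, 0.20, edgeR quasi-likelihood adjusted p = 0.00794). ASNS (ENSG00000070669) lies on the minus strand of chromosome 7 of GRCh38, from 97851677 to 97872542. Of its pseudogenes, ASNSP1, ASNSP3 and ASNSP6 had at most 2 counts in any library and ASNSP4 had none.

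The ASNS promoter is the classical place where ATF4 binds a C/EBP-ATF response element, so the promoter windows in the RefSeq table (build GRCh38.p14, 250 bases before to 50 after a start site) were searched for TGATGNAA on both strands. A window was given for 7 of the 10 genes (PHGDH, PSAT1, SHMT1, MTHFD1, MTHFD2, MTHFD1L and ASNS). ASNS and MTHFD1L held a match, beside 4.46% of 27305 genes with a window. The ASNS match began 68 bases before a start site and lies at chr7:97872458-97872487 within the 30 bases shown, read along the minus strand. The MTHFD1L match lies at chr6:150866346-150866375 on the plus strand, 129 and 90 bases before 2 of its start sites and 24 bases after another. Each match also lies in an exon of some annotated transcript of its gene in GENCODE. These stretches are shown because they carry the response element in the gene with the largest well measured change and in a mitochondrial folate gene, with the element in capitals.
ASNS: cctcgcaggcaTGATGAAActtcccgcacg
MTHFD1L: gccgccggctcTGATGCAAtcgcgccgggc

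The E-box CACGTG, the core site of MYC, was in the windows of MTHFD1 and MTHFD1L, beside 8.77% of genes. The MTHFD1 match began 15 bases before the start site, and the MTHFD1L match lies upstream of its response element. With CBC MTHFD1 was lower in both lines and MTHFD1L higher in both, and a link of any motif to a change was not tested. The antioxidant response element TGACNNNGC, the site of NRF2, was in the window of MTHFD2, 1 of 7 members with a window, beside 16.1% of genes. The MTHFD2 match began 6 bases after the start site. In the 250 bases before the start alone, none of the 7 members held this element. These matches overlapped none of the other motifs. The windows of PHGDH, PSAT1 and SHMT1 held none of these letters. PSPH, SHMT2 and ALDH1L2 had no window in the table. The capitals mark the E-box of MTHFD1, the folate gene that fell (chr14:64388326-64388355, plus strand), and the antioxidant element of MTHFD2, the folate gene that rose and is well expressed (chr2:74198611-74198640, read along the plus strand, where the element runs on the opposite strand).
MTHFD1: ccagtccctaagCACGTGggttgggttgtc
MTHFD2: ttccctcccgGCGCAGTCAccggcgcggtc

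The first and rate-controlling enzyme of serine synthesis, PHGDH, oxidizes 3-phosphoglycerate. PHGDH (ENSG00000092621) lies on the plus strand of chromosome 1 from 119648411 to 119744218. PHGDH was at 75.3 CPM in the MIA PaCa-2 control, 201 CPM in MIA PaCa-2 CBC, 144 CPM in the PANC-1 control and 229 CPM in PANC-1 CBC. Both CBC libraries were above both controls. The log2 fold change was 1.42 (1.34 to 1.497) in MIA PaCa-2 and 0.66 (0.60 to 0.73) in PANC-1. Across both lines it was 1.05 (SE 0.24), and its edgeR quasi-likelihood adjusted p of 0.0549 missed the threshold. With library totals as the scaling it was 0.0464, with no filter on low counts 0.000198, and with DESeq2 and the same block 0.0107, each past the threshold, while with the size factors of DESeq2 in edgeR it was 0.0682 and without the line block 1, both short of it.

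PSAT1 is the aminotransferase that takes the nitrogen of glutamate for the next step. PSAT1 (ENSG00000135069) lies on the plus strand of chromosome 9 from 78297125 to 78330093. Its level was 178 CPM in the MIA PaCa-2 control, 265 CPM in MIA PaCa-2 CBC, 128 CPM in the PANC-1 control and 260 CPM in PANC-1 CBC. The CBC libraries were close to each other and above both controls. CBC gave a log2 fold change of 0.58 (0.52 to 0.63) in MIA PaCa-2 and 1.02 (0.95 to 1.08) in PANC-1, where it lay at the DEG threshold. Across both lines it was 0.80 (SE 0.20, edgeR quasi-likelihood adjusted p = 0.0676), which missed the threshold. With DESeq2 the adjusted p was 0.0142, and with no filter on low counts in edgeR 0.00573, both past the threshold. It stayed short with library totals (0.0597), with the size factors of DESeq2 in edgeR (0.0886) and without the line block (1).

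PSPH, the phosphatase that releases free serine, showed the smallest differences of the serine enzymes. PSPH (ENSG00000146733) lies on the minus strand of chromosome 7 from 56011051 to 56051604. PSPH was at 97.2 CPM in the MIA PaCa-2 control, 95.6 CPM in MIA PaCa-2 CBC, 57.3 CPM in the PANC-1 control and 67.2 CPM in PANC-1 CBC. Here the libraries grouped by line and not by treatment. The log2 fold changes were -0.02 (-0.11 to 0.06) and 0.23 (0.13 to 0.33), and the value across both lines was 0.11 (SE 0.21, edgeR quasi-likelihood adjusted p = 0.815). The unprocessed pseudogene PSPHP1 had 0 counts in both MIA PaCa-2 libraries, and 80 and 113 counts in the PANC-1 control and PANC-1 CBC. It could have taken reads of PSPH in PANC-1 cells, where PSPH itself had 1304 and 1837 counts.

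**Figure D2:**
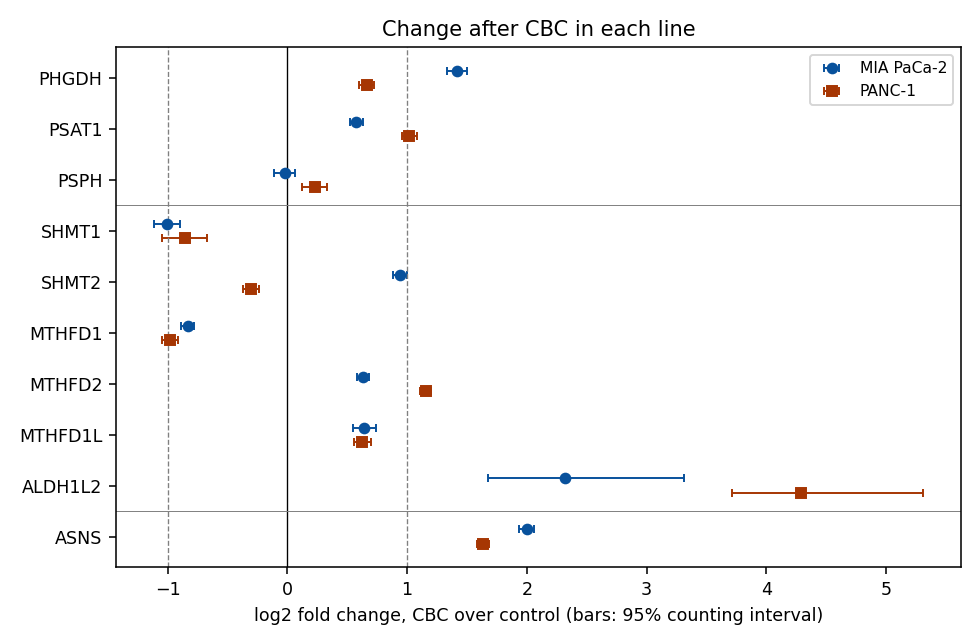
log2 fold change of CBC over the control of the same line for each gene, with MIA PaCa-2 as circles and PANC-1 as squares, bars for the 95% counting interval and dashed lines at the DEG threshold of 1. ASNS and ALDH1L2 lie past the dashed line in both lines, SHMT1 and MTHFD1 lie left of 0 in both, and SHMT2 lies on opposite sides of 0.

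Of the mitochondrial folate enzymes, MTHFD2 and ALDH1L2 rose. MTHFD2, the dehydrogenase and cyclohydrolase of mitochondria, was at 221 CPM in the MIA PaCa-2 control, 343 CPM in MIA PaCa-2 CBC, 229 CPM in the PANC-1 control and 510 CPM in PANC-1 CBC. The controls were nearly equal and both CBC libraries were higher. Log2 fold changes were 0.63 (0.58 to 0.69) in MIA PaCa-2 and 1.16 (1.11 to 1.20) in PANC-1, and 0.90 across both lines (SE 0.20, edgeR quasi-likelihood adjusted p = 0.0473). With the size factors of DESeq2 in the same test its adjusted p was 0.0645, so the call sits at the threshold, and over all alternatives it ran from 0.000404 to 1. The 7 processed MTHFD2 pseudogenes in the table had no count. MTHFD2 (ENSG00000065911) lies on the plus strand of chromosome 2 from 74186172 to 74217565.

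ALDH1L2 is the mitochondrial formyltetrahydrofolate dehydrogenase, which releases carbon dioxide and forms NADPH. It was hardly expressed in the controls. ALDH1L2 (ENSG00000136010) lies on the minus strand of chromosome 12 from 105019784 to 105107643. ALDH1L2 had 16 counts (0.72 CPM) in the MIA PaCa-2 control, 97 counts (3.92 CPM) in MIA PaCa-2 CBC, 15 counts (0.66 CPM) in the PANC-1 control and 395 counts (14.5 CPM) in PANC-1 CBC. The controls of the lines were alike within counting error, and both CBC libraries were higher. On the log2 scale the change was 2.32 (1.67 to 3.31) in MIA PaCa-2 and 4.29 (3.71 to 5.30) in PANC-1, the largest of the 10 genes in each line. Across both lines it rose by 3.47 (SE 0.59, edgeR quasi-likelihood adjusted p = 0.023). It shares 145 exon bases with NOPCHAP1 and 131 with WASHC4 on the opposite strand. WASHC4 had 1058, 1472, 2035 and 4420 counts in the order of the libraries above, and how HTSeq treated strand is not given in the sources used here, so some of these few ALDH1L2 reads could be those of WASHC4.

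MTHFD1L, the mitochondrial formyltetrahydrofolate synthetase that releases formate, was at 64.7 CPM in the MIA PaCa-2 control, 101 CPM in MIA PaCa-2 CBC, 107 CPM in the PANC-1 control and 165 CPM in PANC-1 CBC. The treatment groups overlapped, since CBC-treated MIA PaCa-2 cells reached about the level of untreated PANC-1 cells. Its log2 fold changes were nearly the same in the lines, 0.64 (0.55 to 0.74) and 0.63 (0.55 to 0.70). Across both lines the value was 0.64 (SE 0.20, edgeR quasi-likelihood adjusted p = 0.124), short of the threshold, and with DESeq2 the adjusted p was 0.0388. Over the other alternatives it ran from 0.085 to 1. MTHFD1L (ENSG00000120254) lies on the plus strand of chromosome 6 from 150865679 to 151101887.

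SHMT2, the mitochondrial serine hydroxymethyltransferase, was the member whose values went in opposite directions. SHMT2 (ENSG00000182199) lies on the plus strand of chromosome 12 from 57229573 to 57234935. SHMT2 was at 143 CPM in the MIA PaCa-2 control, 275 CPM in MIA PaCa-2 CBC, 160 CPM in the PANC-1 control and 130 CPM in PANC-1 CBC. Only MIA PaCa-2 CBC stood apart, and the other 3 libraries were within 130 to 160 CPM. The log2 fold change was 0.94 (0.88 to 1.0) in MIA PaCa-2 and -0.30 (-0.37 to -0.23) in PANC-1. Across both lines it was 0.33 (SE 0.30, edgeR quasi-likelihood adjusted p = 0.597), with the largest standard error of the members except ALDH1L2. The counting intervals of the lines lay on opposite sides of 0 for 12.7% of the genes tested in both lines.

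The cytosolic enzymes were lower with CBC in both lines, as SHMT2 was in PANC-1 cells alone. MTHFD1, which carries the dehydrogenase, cyclohydrolase and synthetase activities of the cytosol in 1 protein, was at 300.2 CPM in the MIA PaCa-2 control, 169 CPM in MIA PaCa-2 CBC, 194 CPM in the PANC-1 control and 98.7 CPM in PANC-1 CBC. Both CBC libraries were below both controls. Its log2 fold change was -0.83 (-0.89 to -0.78) in MIA PaCa-2 and -0.98 (-1.05 to -0.91) in PANC-1. Across both lines MTHFD1 fell by 0.90 on the log2 scale (SE 0.19, edgeR quasi-likelihood adjusted p = 0.0431). With library totals the adjusted p was 0.0536, and over all alternatives it ran from 0.000236 to 1. MTHFD1 (ENSG00000100714) lies on the plus strand of chromosome 14 from 64388031 to 64463457.

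SHMT1, the cytosolic serine hydroxymethyltransferase, was at 92.3 CPM in the MIA PaCa-2 control, 46.0 CPM in MIA PaCa-2 CBC, 25.6 CPM in the PANC-1 control and 14.2 CPM in PANC-1 CBC. It was lower with CBC in each line, but PANC-1 libraries were below both MIA PaCa-2 libraries, so the treatment groups overlapped. The log2 fold change was -1.003 (-1.11 to -0.90) in MIA PaCa-2 cells, at the DEG threshold, and -0.85 (-1.05 to -0.67) in PANC-1 cells. Across both lines it was -0.92 (SE 0.23, edgeR quasi-likelihood adjusted p = 0.0647), short of the threshold. With DESeq2 the adjusted p was 0.00891, and with no filter on low counts in edgeR 0.012. It stayed short with the size factors of DESeq2 in edgeR (0.0708), with library totals (0.0804) and without the line block (1). SHMT1 shares 197 exon bases with SMCR8 on the opposite strand, whose counts were higher with CBC in both lines (1291 to 2507 and 1416 to 2610). SHMT1 (ENSG00000176974) lies on the minus strand of chromosome 17 from 18327860 to 18363563.

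Within a library the ratio of a mitochondrial enzyme to its cytosolic counterpart does not depend on the scaling between libraries. The pairs were set by compartment and reaction, with the values above already known, so their direction is a description. The ratio of SHMT2 to SHMT1, per length of the canonical transcript (TPM), was 1.82 in the MIA PaCa-2 control, 7.0 in MIA PaCa-2 CBC, 7.29 in the PANC-1 control and 10.7 in PANC-1 CBC. With CBC it was 3.85 times as high (3.54 to 4.18, counting error only) in MIA PaCa-2 and 1.47 times (1.28 to 1.69) in PANC-1. So in MIA PaCa-2 cells the ratio reached the value that untreated PANC-1 cells already had.

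The ratio of MTHFD2 to MTHFD1 was 0.527 in the MIA PaCa-2 control and 1.46 after CBC, and 0.844 in the PANC-1 control and 3.70 after CBC, a change of 2.77 times (2.63 to 2.91) and 4.39 times (4.14 to 4.65). That of MTHFD1L to MTHFD1 was 0.197 and then 0.548 in MIA PaCa-2 and 0.504 and then 1.53 in PANC-1, a change of 2.78 times (2.58 to 3.0) and 3.04 times (2.84 to 3.26). All 3 ratios were higher with CBC in both lines. Those of MTHFD2 and MTHFD1L share the denominator MTHFD1, which fell, so they are not separate observations. In PANC-1 cells SHMT2 was itself lower with CBC (log2 fold change -0.30), and its ratio was higher because SHMT1 was lower by more (-0.85). The changes of the ratios do not depend on the transcript length used, but the levels do. With all annotated exons as the length, a setting chosen after the values were seen, the MTHFD2 to MTHFD1 ratio was 1.12 in the MIA PaCa-2 control and 1.79 in the PANC-1 control, on the other side of 1.

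**Figure D3:**
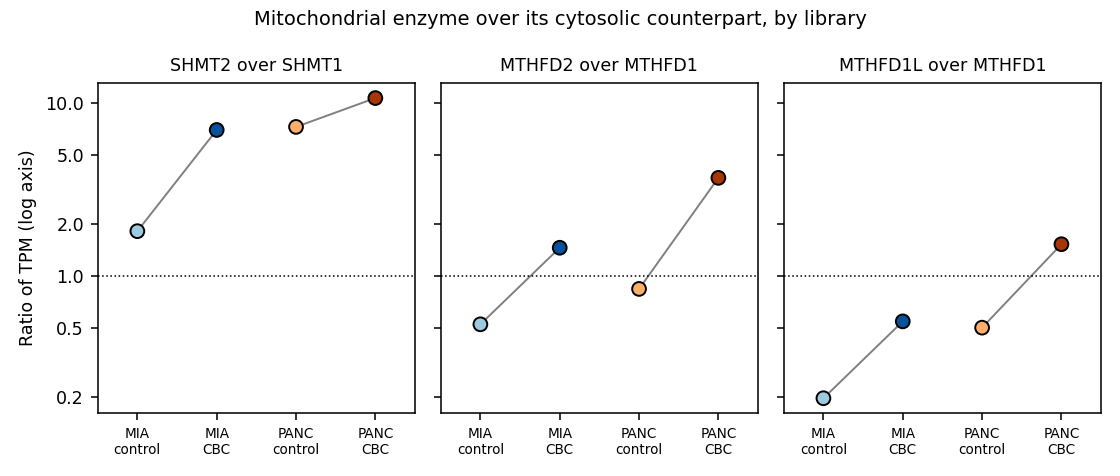
Ratio of TPM of a mitochondrial enzyme to the cytosolic enzyme of the same reaction in each of the 4 libraries, on a log axis, with lines joining the control and CBC library of a line and a dotted line at equal levels. Every joined pair slopes up, most steeply for SHMT2 over SHMT1 in MIA PaCa-2 cells (1.82 to 7.0) and MTHFD2 over MTHFD1 in PANC-1 cells (0.844 to 3.70).

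Per length of the canonical transcript, the order of the 10 genes differed between control and CBC libraries, but it depends on the length used. In the MIA PaCa-2 control the highest member was MTHFD1 at 215 TPM, followed by PSAT1 at 182 TPM and SHMT2 at 150 TPM, with ASNS at 101 TPM. After CBC the highest was ASNS at 434 TPM, then SHMT2 at 309 TPM and PSAT1 at 291 TPM, and MTHFD1 was at 129 TPM. In the PANC-1 control PHGDH, SHMT2 and ASNS were close together at 176, 168 and 163 TPM. In PANC-1 CBC ASNS was at 555 TPM, ahead of PHGDH at 306 TPM, PSAT1 at 293 TPM and MTHFD2 at 289 TPM, and the last 3 of these cannot be ordered with 1 library. With all annotated exons as the length, PSAT1 was the highest member in each library, at 304 and 497 TPM in MIA PaCa-2 without and with CBC and at 220 and 504 TPM in PANC-1. On that length ASNS was at 361 TPM in MIA PaCa-2 CBC and 464 TPM in PANC-1 CBC, MTHFD1 was at 65.2 TPM in the MIA PaCa-2 control, and PHGDH was at 59.4 TPM in the PANC-1 control, so the order above holds for the canonical length alone. By either length ALDH1L2 was the lowest member in each library, for the canonical length at 0.20 TPM in the PANC-1 control and 4.85 TPM in PANC-1 CBC, so after the largest change of all it was still far below the other mitochondrial enzymes.

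At baseline the lines were compared as the PANC-1 control over the MIA PaCa-2 control, with 1 library each and no test. Of the 9 members tested, none was higher past the threshold (background 24.0% of 14805 genes) and SHMT1 was lower (background 18.0%), with a log2 ratio of -1.84 (-1.98 to -1.71). PHGDH was higher in PANC-1 cells by 0.94 (0.85 to 1.03), MTHFD1L by 0.73 (0.63 to 0.82) and ASNS by 0.68 (0.60 to 0.75). PSPH, MTHFD1 and PSAT1 were lower in PANC-1 cells, with log2 ratios of -0.76, -0.63 and -0.47. MTHFD2 was at 0.05 (-0.01 to 0.11), an interval that includes equal levels. The median of the 9 members was 0.05, beside 0.10 over all tested genes. ALDH1L2 was under 1 CPM in both controls and was not tested.

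When the lines were compared over both treatments in the same edgeR model, with the treatment as a block, 3 of the 10 genes were lower in PANC-1 cells (background 21.7%) and 1 was higher (background 25.1%). SHMT1 had a log2 ratio of -1.83 (SE 0.23, edgeR quasi-likelihood adjusted p = 0.000636). MTHFD1 was at -0.76 (edgeR adjusted p = 0.014), PSPH at -0.69 (adjusted p = 0.0285) and MTHFD1L at 0.66 (adjusted p = 0.029). For PHGDH the log2 ratio was 0.50 (SE 0.24, edgeR adjusted p = 0.124), and after CBC its levels in the lines, 201 and 229 CPM, were closer than before. This test takes both CBC libraries along and is not a test of the controls alone.

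The size of the CBC response differed between the lines by more than 1 on the log2 scale for 2 of the 10 genes, ALDH1L2 and SHMT2, as it did for 12.9% of the genes tested in both lines. With at least 1 CPM in both libraries of a line ALDH1L2 was not tested and 1 member, SHMT2, was left. No residual degree of freedom was left for a test of these differences, and the doses differed. ALDH1L2 was 1.97 higher in PANC-1 cells (SE from counting 0.54), and SHMT2 was 1.24 lower there (difference -1.24, standard error from counting 0.05). The PHGDH value was lower in PANC-1 cells (difference -0.75), as was that of ASNS (-0.36). MTHFD2 (0.52), PSAT1 (0.44) and PSPH (0.25) had the higher value in PANC-1 cells. MTHFD1L (-0.02), MTHFD1 (-0.14) and SHMT1 (0.15) had nearly the same value in both lines.

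The other genes of these pathways were taken from 6 lists of 68 genes in all. In MIA PaCa-2 cells 5 of their 60 tested genes were higher DEGs (background 11.5%) and 8 lower (background 8.97%). The median log2 fold change of these 60 genes was -0.20. In PANC-1 cells 4 of 59 were higher (background 7.71%) and 2 lower (background 7.03%), with a median of -0.10. Across both lines 5 of 61 genes rose (background 2.26%) and 4 fell (background 2.45%).

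Of the 16 other folate enzymes and carriers, 15 were in the test across both lines, and none rose (background 2.26%). TYMS, the thymidylate synthase that uses a folate one-carbon unit for DNA synthesis, was at 298 and 181 CPM in the MIA PaCa-2 and PANC-1 controls and at 91.2 and 31.9 CPM after CBC, and fell by 2.10 on the log2 scale across the lines (edgeR quasi-likelihood adjusted p = 0.0108). Of the 4 glycine cleavage genes, 3 were in this test and none was called. Of the 12 purine synthesis genes, all in the test, none rose (background 2.26%) and 2 fell (background 2.45%). These were PRPS2 and PAICS (edgeR quasi-likelihood adjusted p = 0.0289 for each).

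The S phase list was lower with CBC in both lines. Of its 16 genes, 14 fell across both lines (background 2.45%), and its median log2 fold change was -1.17 in MIA PaCa-2 and -2.21 in PANC-1. MCM3, a subunit of the replicative helicase, fell by 1.999 on the log2 scale across both lines and E2F1, a transcription factor of S phase entry, by 2.20. GINS2 of the same helicase fell by 1.94. MTHFD1 and SHMT1 were lower beside this list, by less than its median in each line, and its part in their values was not tested.

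Of the 14 aspartate, glutamine and proline enzymes, 12 were in the test across both lines. Among these, 2 rose (background 2.26%) and none fell (background 2.45%). GOT1, which makes aspartate in the cytosol, was at 61.3 and 113 CPM in the MIA PaCa-2 and PANC-1 controls and at 188 and 330.2 CPM after CBC, and rose by 1.59 on the log2 scale (edgeR quasi-likelihood adjusted p = 0.0112). GPT2, the mitochondrial alanine aminotransferase, had 1.37 (edgeR adjusted p = 0.0188). In the methionine cycle and transsulfuration list 9 of 11 genes were tested, 1 rose (background 2.26%) and none fell (background 2.45%). The gene that rose was CTH, which makes cysteine from cystathionine, with 2.15 (edgeR adjusted p = 0.00865). Of the 11 enzymes that use serine or asparagine, 10 were tested, 2 rose (background 2.26%) and none fell (background 2.45%). SDSL, a serine dehydratase-like protein, and SARS1, the cytosolic seryl-tRNA synthetase, rose, with log2 fold changes of 1.49 and 0.93 (edgeR adjusted p = 0.0471 and 0.0356). NARS1, the cytosolic asparaginyl-tRNA synthetase, was not called (0.56, edgeR adjusted p = 0.138), and neither were the mitochondrial synthetases SARS2 and NARS2.

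**Figure D4:**
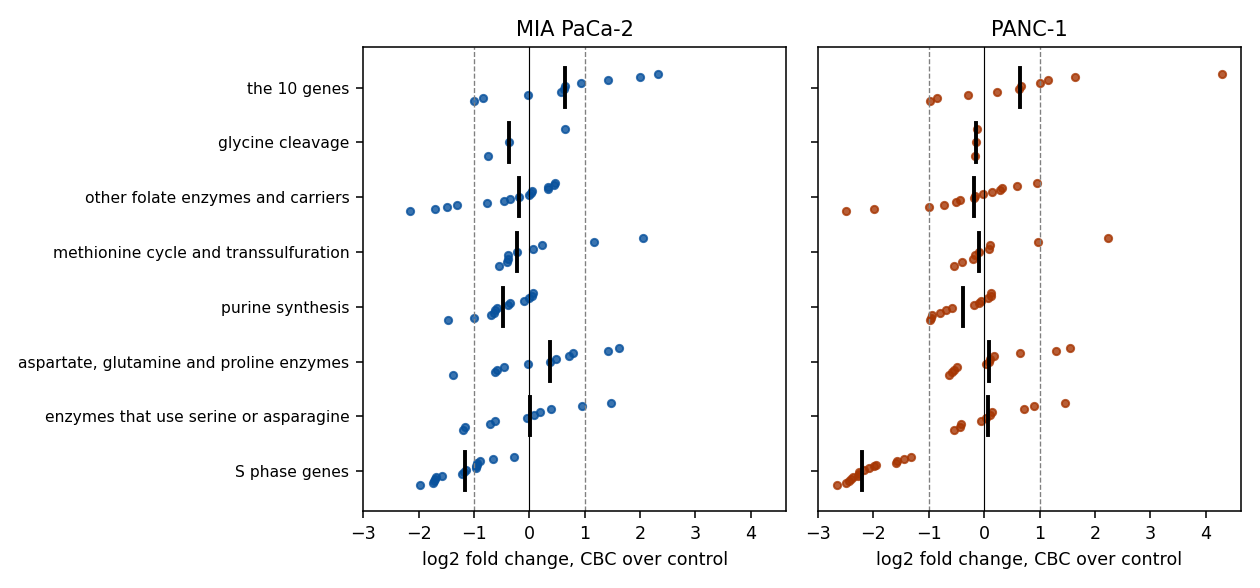
log2 fold change of CBC over control for the 10 genes and the tested genes of 7 lists, with 1 point per gene, a black bar at the median of each list and dashed lines at 1 and -1, for MIA PaCa-2 (left) and PANC-1 (right). The 10 genes have medians of 0.64 and 0.65, the 6 pathway lists have medians of at most 0.37 and 0.09, and the S phase list lies at -1.17 and -2.21.

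The transcription factors known to act on these genes were measured as well. ATF4 was at 207 CPM in the MIA PaCa-2 control, 614 CPM in MIA PaCa-2 CBC, 243 CPM in the PANC-1 control and 469 CPM in PANC-1 CBC, and rose across both lines by 1.27 on the log2 scale (edgeR quasi-likelihood adjusted p = 0.0229). MYC, a regulator of SHMT2 among many genes, was at 165 CPM in the MIA PaCa-2 control, 385 CPM in MIA PaCa-2 CBC, 64.4 CPM in the PANC-1 control and 61.4 CPM in PANC-1 CBC. With CBC, MYC and SHMT2 were thus both higher in MIA PaCa-2 cells and not in PANC-1 cells. The controls did not share this likeness. There MYC was lower in PANC-1 than in MIA PaCa-2 cells (log2 ratio -1.36), while SHMT2 was slightly higher (0.15). A link between MYC and SHMT2 was not tested. NFE2L2, which encodes NRF2, had log2 fold changes of 0.55 and 0.37 and was not called (edgeR quasi-likelihood adjusted p = 0.235).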

How the data were processed

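Poly(A) RNA was sequenced by the authors from 4 libraries, 1 per group. Reads were trimmed with cutadapt 2.7, aligned to GRCh38 with STAR and counted per Ensembl gene with HTSeq (the strand setting is not given in the sources used here). The authors deposited raw counts per gene, and a normalized signal per library, which is the counts over TMM-scaled library sizes (largest relative difference 6.84e-09). The counts were used throughout, and the deposited signal only as an alternative. Of 58233 identifiers, 57392 matched a symbol. Positions and lengths came from GENCODE on GRCh38, another release than the authors used.

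Log2 fold changes were computed in R 4.3.3 with edgeR 4.0.16, a prior count of 2 and TMM factors from all 4 libraries. The quasi-likelihood test had the line as a block and 1 residual degree of freedom, with a coefficient of biological variation of 23.0%. Pairing comes from the cell line, and libraries of a line deviated together from the mean of their treatment (correlation 0.923 over 16381 genes). With 2 lines this value reflects the difference between the lines and does not show that cultures were paired. The test was checked on simulated data with the same dispersion for all genes and the same change in both lines. That check does not cover responses that differ between the lines. Standard errors were derived from the F statistic. Intervals cover counting error only. DESeq2 1.42.0 was an alternative. Other alternatives changed the filter, prior count and scaling.

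All 10 members are named. Of the other lists, those past a log2 fold change of 1 in the same direction in both lines with a mean of at least 10 CPM are named (at most 3 per list), and all transcription factors. PRPS2, PAICS and SARS1, and the uncalled NARS1, SARS2 and NARS2, were named after their values were seen. One result on the list of other folate enzymes is not reported here. The members and lists were chosen with earlier results of these data known. Protein sequences were not used here.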

Additional observations from a re-analysis of the deposited data

Results flagged for a closer look

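SHMT2 was looked at again because its values went in opposite directions in the lines, with counting intervals on opposite sides of 0. Its log2 fold change in PANC-1 cells was 1.24 below that in MIA PaCa-2 cells (difference -1.24). The difference was not tested, since each line had 1 library per condition and the doses differed.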

How the results depend on the processing

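In the test across both lines 4 members and 9 genes of the other pathway lists were called, and 771 of all genes. With no replicate block (the cell line left out) 0 members, 0 list genes and 0 of all genes were called by edgeR, with 2 members and 354 of all genes at an unadjusted p under 0.05. DESeq2 with the same block called 8 members, 15 list genes and 1296 of all genes, and edgeR with no filter on low counts called 7, 15 and 2063. For the lines over both treatments, the fit without the block on treatment called 1 member and 13 list genes, where 4 and 32 were called with it. With at least 1 CPM in both libraries, ALDH1L2 was not tested and 1 member, SHMT2, had responses more than 1 apart. With TGATGCAA as the motif, 1 member window matched in place of 2. With no filter on low counts 5816 genes were DEGs in MIA PaCa-2, 4847 in PANC-1 and 10878 between the controls, where 2864, 2078 and 6207 were with it, and 3594 between the controls with at least 1 CPM in both libraries. Over all genes the lines differed over both treatments for 7652 genes, and for 4251 without the block. The other 68 counts stayed within 1.5 times their value, and no called value changed sign. Calls at the threshold moved: SHMT1 in MIA PaCa-2 cells was at -0.94 with library totals, where SHMT2 was at 1.004, and with TMM within PANC-1 cells PSAT1 was at 0.99 and MTHFD1 at -1.006. Leaving out a library within a group was not possible with 1 library each, and without 1 line the values are those of the other line. The comparison of protein sequences was not run.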

Other observations

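Glutamine synthetase (GLUL), which makes the glutamine that ASNS uses as its nitrogen donor, was picked out after its values were seen. GLUL had 1 count in the MIA PaCa-2 control, 5 counts in MIA PaCa-2 CBC, 1195 counts in the PANC-1 control and 926 counts in PANC-1 CBC. Its log2 ratio of the controls, PANC-1 over MIA PaCa-2, had a counting interval from 7.71 to 15.5, and the response to CBC across both lines was not called (edgeR quasi-likelihood adjusted p = 0.71).

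The mitochondrial serine carrier SFXN3 was also picked out afterwards. It was at 3.10 CPM in the MIA PaCa-2 control, 1.05 CPM in MIA PaCa-2 CBC, 45.3 CPM in the PANC-1 control and 68.3 CPM in PANC-1 CBC, lower with CBC in one line and higher in the other. Its homologue SFXN1 went from 160 to 94.6 CPM and from 145 to 87.5 CPM in the same lines, lower with CBC in both.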
